A study of Mus musculus with 18 samples.

Results

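A set of 10 genes that detect, relay or limit signals from DNA and RNA in the cytosol was followed in 4T1 cells, a mouse mammary carcinoma line, and in 4T1R1 and 4T1R2, separately selected 4T1 populations resistant to the drug 17-DMAG, which inhibits the chaperone HSP90. The genes were chosen by name, as a set with a known role, but with earlier results of these data known. Their direction is therefore not independent evidence. They are Ddx58, Ifih1, Dhx58, Mavs, Mb21d1, Tmem173, Zbp1, Trex1, Tbk1 and Adar. They make 10 of the 24421 genes listed, and all 10 were among the 13507 genes with enough counts to be tested.

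Cells carry receptors for nucleic acid in the cytosol, where DNA and double-stranded RNA are normally scarce. RIG-I, encoded by Ddx58, MDA5, encoded by Ifih1, and LGP2, encoded by Dhx58, are related RNA helicases, and the first pair signal through MAVS on mitochondria. cGAS, encoded by Mb21d1, binds DNA and makes a cyclic dinucleotide that activates STING, encoded by Tmem173. Both routes reach the kinase TBK1, which phosphorylates IRF3 and so leads to type I interferon. ZBP1 binds nucleic acid in the Z conformation and can signal through the kinase RIPK3. TREX1 degrades DNA in the cytosol, and ADAR converts adenosine to inosine in double-stranded RNA, so both limit the ligands. Several of these genes are themselves induced by interferon in many cell types.

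Each of the 3 populations was sequenced untreated and after 17-DMAG, in 3 libraries per group and 18 libraries in all, made from RNA depleted of ribosomal RNA. The sample records give 1.5 µM 17-DMAG for 48 h, while the series description gives 2 h, so the length of exposure behind every treated value is uncertain. The sample records state that 4T1R1 and 4T1R2 were selected at 1.5 µM for 48 h in each round, and the series description gives 1 µg/ml for 24 h. Both are selected cell populations, not engineered lines, and no engineered allele or transgene is named for any group. Whether alleles differ between the populations was not tested. Beyond the series description calling the replicates biological, nothing says that they came from separate cultures, so P values may measure technical spread only.

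Library totals ran from 23354461 to 55094630 counts. In treated 4T1, replicates 1 and 2 differed from each other by little more than sampling noise, with a chi-square per gene of 1.10. Sampling noise alone would give about 1, and the 17 remaining within-group pairs had 2.04 to 2.22. The mean of replicates 1 and 2 was therefore taken as 1 sample. This left n = 2 for treated 4T1 and n = 3 for every other group. The library identifiers of 4T1R1 are numbered apart from those of 4T1 and 4T1R2, and what this numbering marks is not given in the sources used here. For every difference of 4T1R1 from 4T1 or from 4T1R2, including its size, the population and whatever the numbering marks cannot be told apart. Differences of 4T1R2 from 4T1 do not cross this numbering. The drug check gene Hspa1b, a heat shock chaperone, went from a mean of 490 normalized counts (counts scaled to a common library size) to 16914 in 4T1, from 465 to 4348 in 4T1R1 and from 675 to 3302 in 4T1R2. Hsph1, a further heat shock chaperone, went from 10817 to 71148, from 8915 to 30033 and from 12059 to 27341. All 8 epithelial and 4T1 markers were detected in every group. Their summed level was lower in the resistant populations, at 77556 to 78660 normalized counts in untreated 4T1 libraries, 51840 to 54296 in untreated 4T1R1 and 60075 to 61248 in untreated 4T1R2. The 13 leukocyte and macrophage markers summed to 405 to 472 in untreated 4T1 libraries, 772 to 870 in untreated 4T1R1 and 920 to 1004 in untreated 4T1R2, with Tyrobp at 0 in every group, Adgre1 at 0 in 5 of 6 groups and Cd14 and Cd68 making up most of each sum. The 8 fibroblast and endothelial markers summed to 695 to 785, 859 to 906 and 927 to 1049 in the same groups, mostly Pdgfra. After 17-DMAG the leukocyte sums were 364 to 405 in 4T1, 643 to 729 in 4T1R1 and 807 to 867 in 4T1R2, and the fibroblast and endothelial sums 406 to 426, 716 to 792 and 802 to 916. The part of these marker levels in the results that follow was not tested. As these are bulk libraries, a change in how many cells express a gene and a change in RNA per cell cannot be told apart.

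Promoter sequence was examined for motifs read by interferon-regulated factors and by HSF1, because members of this set are known interferon targets and 17-DMAG induces the heat shock response. RefSeq windows from 250 bases before to 50 after a start site (GRCm38.p6) were found for 7 of the 10 genes, 10 windows in all. Dhx58, Tmem173 and Zbp1 had none in the table used. The core of the interferon-stimulated response element, GAAA and GAAA with any 2 bases between them, was searched on both strands and is held by 3.44% of 32851 mouse promoter windows. It occurred in the windows of 2 genes, Ddx58 and Ifih1, the only members whose window held it. The stretches of 30 bases around it are shown because these genes had some of the largest differences between populations, and capitals mark the motif, which lies on the opposite strand in Ddx58.
Ddx58, chr4:40239804-40239833, minus strand: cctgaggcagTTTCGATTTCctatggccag
Ifih1, chr2:62646206-62646235, minus strand: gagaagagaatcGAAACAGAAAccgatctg
The Ddx58 motif begins 2 bases after the start site and the Ifih1 motif 32 bases after it, both inside the gene as annotated by GENCODE M21. A shorter core, AANNGAAA, was chosen after the windows had been seen and is held by 23.9% of all windows. It overlapped both motifs above, occurred once more in the Ddx58 window, 59 bases before the start site (position -59), and also occurred in the window of the third Adar start site, 29 bases after that start, where capitals mark it.
Adar, chr3:89730736-89730765, plus strand: ccttttcaaggAAACGAAAgtgaactctgg
A heat shock element of 3 units, GAA, TTC and GAA with any 2 bases between neighbors, searched on both strands and held by 0.603% of all windows, occurred in none of the members' windows. These matches describe letters in a window and do not show that a factor binds there.

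In untreated 4T1 cells the genes were expressed at very different levels. Levels between genes are compared as normalized counts per kilobase of exon in GENCODE M21, as mean ± SD of 3 libraries. The study counted reads on the UCSC mm10 annotation, whose exons may differ. The adaptor and signaling genes were highest, with Mavs at 380 ± 19.5, Tbk1 at 370 ± 19.6 and Tmem173 at 345 ± 2.43 per kilobase. The RNA editing enzyme gene Adar followed at 302 ± 7.05, and the DNA sensor gene Mb21d1 at 261 ± 11.8. Ddx58, at 177 ± 0.503, was the highest of the RNA helicase genes and close to Trex1, at 158 ± 10.6. Ifih1 reached 48.4 ± 2.96, Dhx58 16.6 ± 2.79 and Zbp1 5.90 ± 3.14, so the parental cells held little mRNA for the last pair. Trex1 and Dhx58 carry an extra uncertainty from overlapping genes, which is given with their results.

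Both untreated resistant populations held more sensor mRNA than untreated 4T1. In 4T1R1, 7 of the 10 genes were higher and none lower at an adjusted P under 0.05 by edgeR's quasi-likelihood test, while 25.2% of all tested genes were higher, 27.5% lower and 52.7% either. In 4T1R2, 7 of the 10 were again higher and none lower, against 25.6% higher, 26.9% lower and 52.4% either among all tested genes. All libraries of the resistant population lay above all those of 4T1 for 8 of the 10 genes in 4T1R1, against 27.7% of all tested genes, and for 8 in 4T1R2, against 28%. The median log2 fold change of the 10 genes was 0.58 in 4T1R1 and 0.48 in 4T1R2, beside medians of 0.0075 and 0.0068 over all tested genes. These comparisons share the untreated 4T1 libraries, so the 4T1R1 and 4T1R2 values are given side by side. All 4T1R1 values against 4T1 are confounded with the library numbering. Ddx58, Ifih1, Mb21d1, Zbp1, Trex1 and Adar passed in both, Dhx58 in 4T1R1 only and Tbk1 in 4T1R2 only.

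**Figure D1:**
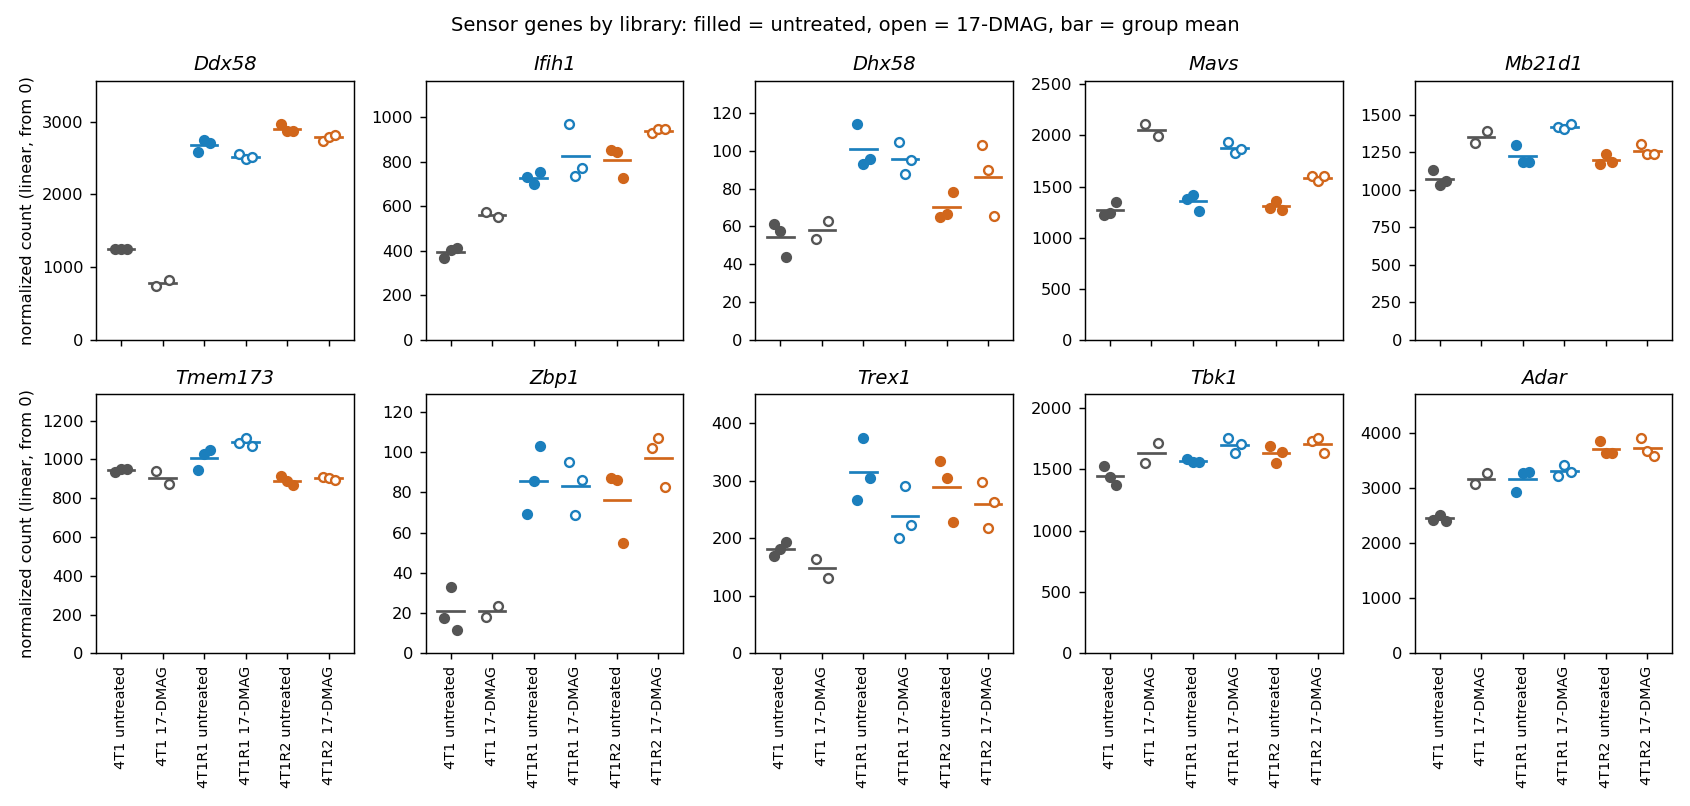
Normalized counts (vertical axes, linear from 0) of the 10 sensor genes in each library of the 6 groups, with filled points for untreated libraries, open points for 17-DMAG and bars for group means. Ddx58 sits at 1244 to 1251 in untreated 4T1 and at 2583 or above in untreated 4T1R1 and 4T1R2, whereas the 3 untreated groups of Mavs overlap.

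The RNA helicase genes showed some of the clearest differences. Gene positions are those of GENCODE M21 on GRCm38, and counts cover the exons. Ddx58 (chr4:40203773-40239828, minus strand), whose product binds short double-stranded RNA with a triphosphate end, had 1249, 1251 and 1244 normalized counts in the 3 untreated 4T1 libraries. It had 2583, 2752 and 2699 in untreated 4T1R1 and 2964, 2872 and 2869 in untreated 4T1R2. The groups did not overlap, and Ddx58 was 2.15-fold higher in 4T1R1 (log2 1.10 ± 0.043 SE, adjusted P = 4.00e-24) and 2.33-fold higher in 4T1R2 (log2 1.22 ± 0.043, adjusted P = 1.55e-25). Ifih1 (chr2:62595798-62646255, minus strand), which encodes the sensor of long double-stranded RNA, had 368, 404 and 413 in untreated 4T1. Its counts were 732, 701 and 752 in 4T1R1 and 852, 844 and 725 in 4T1R2. Every resistant library was above every parental library, with log2 fold changes of 0.88 ± 0.083 (adjusted P = 6.65e-12) and 1.03 ± 0.084 (adjusted P = 8.63e-14).

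Dhx58 (chr11:100694884-100704271, minus strand) encodes LGP2, which lacks the signaling domains of the other helicases and tunes their activity. It was much less abundant, with 61.1, 57.7 and 43.9 normalized counts in untreated 4T1, 114, 92.8 and 95.6 in 4T1R1 and 65.2, 66.5 and 78.4 in 4T1R2. The 4T1R1 libraries were well above the others, and the log2 fold change against 4T1 was 0.90 ± 0.20 (adjusted P = 0.000167). In 4T1R2 the libraries were also all above those of 4T1, but the difference of 0.37 ± 0.21 did not pass (adjusted P = 0.139). An antisense gene, Dhx58os, shares 141 exonic bases with Dhx58, and as the strand setting of the counting is not stated in the sources used here, reads of the pair could not be told apart there. Dhx58os is not itself among the genes counted.

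Zbp1 (chr2:173206612-173218923, minus strand) had the largest relative differences of the 10 genes in both resistant populations. It also had the lowest mean count of the 10 in untreated 4T1 and 4T1R1, while in untreated 4T1R2 the Dhx58 mean was lower. Its normalized counts were 17.6, 33.1 and 11.7 in untreated 4T1, 69.2, 85.5 and 103 in 4T1R1 and 87.3, 86.1 and 54.97 in 4T1R2. No resistant library came down to the parental range. The log2 fold change was 2.06 ± 0.28 in 4T1R1 (4.16-fold, adjusted P = 3.47e-08) and 1.88 ± 0.28 in 4T1R2 (3.69-fold, adjusted P = 3.80e-07). Ripk3, whose product relays ZBP1 signals in cell death, was at no more than 3 normalized counts in any library and was below the filter.

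Both genes that limit nucleic acid ligands were also higher. Adar (chr3:89715022-89753446, plus strand) had 2425, 2514 and 2408 normalized counts in untreated 4T1, 2926, 3279 and 3286 in 4T1R1 and 3850, 3632 and 3629 in 4T1R2. The 3 groups formed separate ranges. Adar was 1.29-fold higher in 4T1R1 (log2 0.37 ± 0.044, adjusted P = 1.92e-09) and 1.51-fold higher in 4T1R2 (log2 0.60 ± 0.044, adjusted P = 3.54e-15). It shares 1365 exonic bases with Chrnb2 on the opposite strand, a gene with at most 58.5 normalized counts in any library.

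Trex1 (chr9:109057933-109059734, minus strand), the cytosolic DNA exonuclease gene, had 169, 182 and 193 normalized counts in untreated 4T1, 267, 375 and 305 in 4T1R1 and 334, 305 and 228 in 4T1R2. All resistant libraries were above all parental ones, with a wider spread among themselves. The log2 fold changes were 0.80 ± 0.14 (adjusted P = 8.43e-06) and 0.68 ± 0.15 (adjusted P = 0.000132). In GENCODE M21 all 1147 exonic bases of Trex1 lie within the exons of Atrip on the same strand. Whether they overlap as fully in the annotation used for counting was not examined. Where they do, how reads were divided between them depends on a counting rule that is not stated in the sources used here. Atrip itself, which encodes a partner of the checkpoint kinase ATR, differed from untreated 4T1 by a log2 of -0.0038 ± 0.090 in 4T1R1 and 0.041 ± 0.091 in 4T1R2 (adjusted P = 0.976 and 0.730).

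The DNA sensor and the shared signaling genes differed little between untreated populations. Mb21d1 (chr9:78430526-78443237, minus strand) had 1129, 1034 and 1062 normalized counts in 4T1, 1296, 1189 and 1187 in 4T1R1 and 1172, 1239 and 1188 in 4T1R2. Both resistant groups lay above 4T1 without overlap and overlapped each other. The differences from 4T1 were small, at log2 0.19 ± 0.053 (adjusted P = 0.00300) and 0.16 ± 0.054 (adjusted P = 0.0136). Without untreated 4T1 replicate 2 the 4T1R2 value was 0.13 (adjusted P = 0.0708), and without untreated 4T1R2 replicate 2 it was 0.13 (adjusted P = 0.0620), so this call rests on those libraries. Gm8093, on the opposite strand, shares 201 exonic bases with Mb21d1 and is not itself among the genes counted.

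Tmem173 (chr18:35733679-35740554, minus strand), the STING gene, stayed within a narrow range. Its counts were 937, 949 and 949 in untreated 4T1, 947, 1030 and 1049 in 4T1R1 and 912, 887 and 868 in 4T1R2. All 4T1R2 libraries were under all 4T1 libraries by a small margin, and those of 4T1R1 overlapped 4T1. The log2 differences from 4T1, 0.094 ± 0.056 in 4T1R1 and -0.087 ± 0.058 in 4T1R2, did not pass (adjusted P = 0.160 and 0.209).

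For Mavs (chr2:131234063-131248025, plus strand), the mitochondrial adaptor gene of RIG-I and MDA5, the counts were 1226, 1243 and 1347 in untreated 4T1, 1383, 1416 and 1265 in 4T1R1 and 1288, 1360 and 1268 in 4T1R2. The groups overlapped, with log2 differences of 0.089 ± 0.051 (adjusted P = 0.148) and 0.035 ± 0.052 (adjusted P = 0.598). Without untreated 4T1R1 replicate 3 the 4T1R1 difference was 0.14 and passed (adjusted P = 0.0357).

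Tbk1 (chr10:121546455-121586787, minus strand), the kinase gene downstream of both routes, had 1527, 1440 and 1374 in untreated 4T1, 1581, 1559 and 1558 in 4T1R1 and 1690, 1552 and 1643 in 4T1R2. Every resistant library was above every parental library by a small margin. The log2 difference was 0.11 ± 0.051 in 4T1R1, which missed the threshold (adjusted P = 0.0548), and 0.17 ± 0.051 in 4T1R2, which passed it (adjusted P = 0.00425). It passed narrowly under several alternatives, with RLE scaling (adjusted P = 0.0495), total counts (0.0253), at least 10 counts in every library (0.0407) and 18 separate libraries (0.0498), at log2 values of 0.12 to 0.14. Without untreated 4T1 replicate 1 the value was 0.16 and also passed (adjusted P = 0.0189). That Tbk1 passed in 4T1R2 and not in 4T1R1 does not show that the populations differ, as the test between them gave 0.058 ± 0.051 (adjusted P = 0.393).

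**Figure D2:**
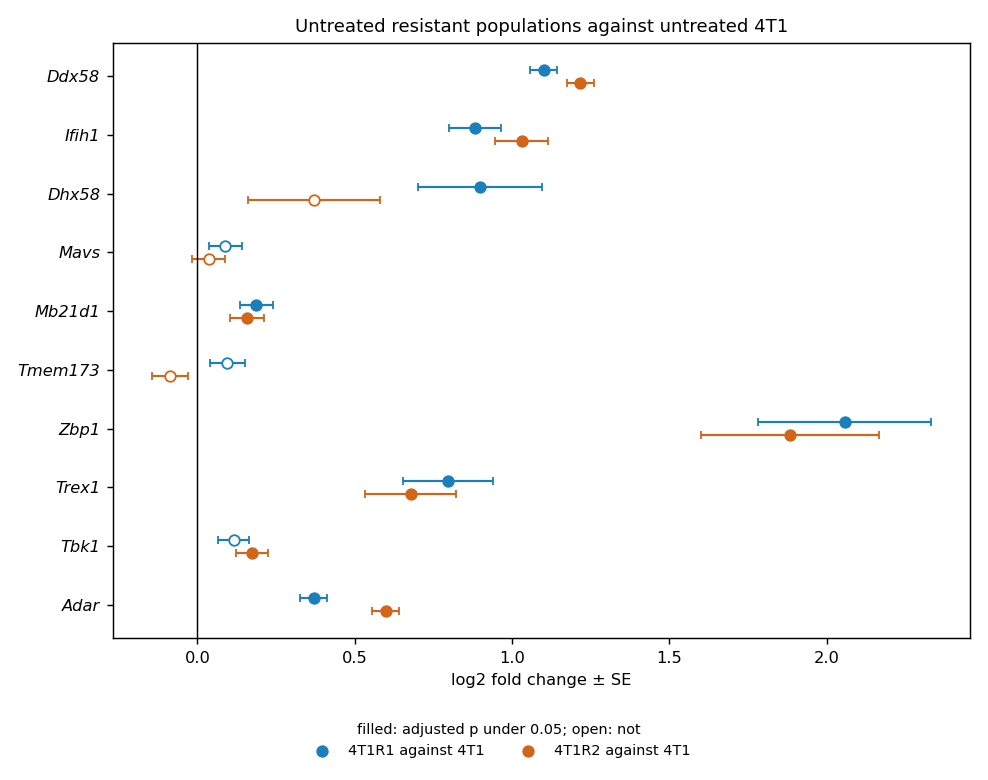
Log2 fold change (horizontal axis) of each sensor gene in untreated 4T1R1 and 4T1R2 against untreated 4T1, with bars of 1 SE and filled points at an adjusted P under 0.05. Zbp1, at 2.06 and 1.88, and Ddx58, at 1.10 and 1.22, lie farthest to the right. Next come Dhx58 in 4T1R1, at 0.90, and Ifih1 in 4T1R2, at 1.03. Mavs, at 0.089 and 0.035, and Tmem173, at 0.094 and -0.087, lie closest to 0.

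Compared directly, with the library numbering confounded as given above, untreated 4T1R2 had 2 genes higher and 2 lower than untreated 4T1R1, beside 19.7% of all tested genes higher, 19% lower and 38.8% either. The member counts are near these shares. Adar was higher in 4T1R2 by a log2 of 0.23 ± 0.043 (adjusted P = 3.17e-05), and Ddx58 by 0.12 ± 0.040 (adjusted P = 0.0184). Dhx58 was lower by 0.53 ± 0.19 (log2 -0.53, adjusted P = 0.0264) and Tmem173 by 0.18 ± 0.057 (log2 -0.18, adjusted P = 0.00985). Only the Adar call held in every fit that left out 1 library. Without untreated 4T1R1 replicate 1 or untreated 4T1R2 replicate 1, both Ddx58 (log2 0.091 and 0.10, adjusted P = 0.109 and 0.0871) and Dhx58 (log2 -0.43 and -0.47, adjusted P = 0.121 and 0.0973) lost their calls, which brought the count from 4 to 2. Dhx58 also lost it without untreated 4T1R2 replicate 2 (log2 -0.50, adjusted P = 0.0716). Tmem173 lost it without untreated 4T1R1 replicate 3 (log2 -0.15, adjusted P = 0.0602), and Ifih1, at 0.15 ± 0.078 with all libraries, passed without untreated 4T1R2 replicate 3 (log2 0.22, adjusted P = 0.0403). No member differed by a tested margin of more than 1.2-fold between the resistant populations.

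17-DMAG changed 6 of the 10 genes in 4T1, 3 in 4T1R1 and 1 in 4T1R2, against 36.4%, 28.2% and 10.5% of all tested genes. The 4T1R1 and 4T1R2 counts are near the shares over all genes. In 4T1, 5 were higher and 1 lower after the drug, against 18.4% and 17.9% of all tested genes. In 4T1R1 the count was 2 higher and 1 lower, against 13.9% and 14.3%. In 4T1R2 it was 1 higher and none lower, against 6.18% and 4.35%. These shares depend on the scaling: with total counts alone, 1193 genes were higher and 4322 lower in 4T1, in place of 2490 and 2423, the split in 4T1R1 was 2356 to 1316 in place of 1874 to 1938, and that in 4T1R2 was 365 to 1146 in place of 835 to 588. Under that scaling the median of all genes shifted to -0.11 in 4T1, 0.025 in 4T1R1 and -0.048 in 4T1R2, and 4 members were higher and 1 lower in 4T1R1.

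Mavs was the only member called higher after the drug in all 3 populations. Treated 4T1 had 2109 in the averaged library and 1997 in replicate 3, against 1226 to 1347 untreated. Treated 4T1R1 had 1931, 1827 and 1864, and treated 4T1R2 had 1600, 1557 and 1600, with every treated library above every untreated one of its population. The increase was 1.61-fold in 4T1 (log2 0.69 ± 0.055, adjusted P = 8.76e-14), 1.38-fold in 4T1R1 (log2 0.47 ± 0.050, adjusted P = 1.14e-09) and 1.22-fold in 4T1R2 (log2 0.28 ± 0.051, adjusted P = 0.000126).

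Ddx58 was the only member called lower in 4T1, although with total counts as the scaling Tmem173 was called lower there too (log2 -0.18, adjusted P = 0.0255). Treated 4T1 had 742 in the averaged library and 825 in replicate 3, well under the 1244 to 1251 of untreated cells. It fell by 0.68 ± 0.054 on the log2 scale, a 1.60-fold decrease (adjusted P = 9.13e-14). In 4T1R1 the treated libraries had 2553, 2486 and 2514, and in 4T1R2 they had 2739, 2790 and 2820. These were all slightly under their untreated libraries, with log2 values of -0.089 ± 0.040 in 4T1R1 and -0.061 ± 0.040 in 4T1R2 that did not pass (adjusted P = 0.0958 and 0.381).

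Its relative Ifih1 moved the other way in 4T1. Treated 4T1 had 572 and 551, above the untreated range of 368 to 413, and the increase was 0.51 ± 0.094 on the log2 scale (adjusted P = 2.70e-05). In 4T1R1 the treated libraries, at 968, 737 and 772, overlapped the untreated ones (log2 0.18 ± 0.077, adjusted P = 0.0691). In 4T1R2 they stood at 927, 947 and 945, above 725 to 852, yet the difference of 0.22 ± 0.076 narrowly missed the threshold (adjusted P = 0.0563). It passed, making 2 members called in place of 1, without untreated 4T1 replicate 1 (adjusted P = 0.0495), untreated 4T1R1 replicate 2 (0.0431), treated 4T1R1 replicate 1 (0.0258) or treated 4T1R1 replicate 2 (0.0468), at a log2 of 0.22 each time. The 4T1R1 value passed without treated replicate 2 (log2 0.26, adjusted P = 0.0167) or replicate 3 (0.23, adjusted P = 0.0446).

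Adar also responded in the parental cells. It had 3068 and 3270 in treated 4T1, above the untreated range of 2408 to 2514, an increase of 0.37 ± 0.048 on the log2 scale (adjusted P = 3.68e-08). Treated 4T1R1 had 3220, 3416 and 3291 and treated 4T1R2 had 3915, 3666 and 3577, both overlapping their untreated libraries (log2 0.065 ± 0.043 and 0.0049 ± 0.042, adjusted P = 0.281 and 0.963). Treated 4T1 thereby reached the level of untreated 4T1R1, whose libraries spanned 2926 to 3286.

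In the DNA-sensing branch, Mb21d1 rose in 4T1, where treated libraries had 1311 and 1389 (log2 0.33 ± 0.058, adjusted P = 1.56e-05), and in 4T1R1, where they had 1419, 1403 and 1437 (log2 0.21 ± 0.052, adjusted P = 0.00157). In 4T1R2 the treated libraries had 1303, 1238 and 1240 and overlapped the untreated ones (log2 0.072 ± 0.053, adjusted P = 0.446). Its partner Tmem173 did not pass in any population, with treated counts of 938 and 873 in 4T1, 1086, 1113 and 1071 in 4T1R1 and 912, 904 and 892 in 4T1R2. The log2 values were -0.059 ± 0.063, 0.11 ± 0.056 and 0.021 ± 0.057 (adjusted P = 0.509, 0.134 and 0.876).

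Tbk1 rose slightly in 4T1, to 1549 and 1712 (log2 0.17 ± 0.056, adjusted P = 0.0148). That call was lost without untreated 4T1 replicate 3 (log2 0.13, adjusted P = 0.0942), without treated 4T1 replicate 3 (log2 0.095, adjusted P = 0.361) and with total counts as the scaling (log2 0.054, adjusted P = 0.505). In 4T1R1 and 4T1R2 the log2 values were 0.12 ± 0.050 and 0.063 ± 0.050 and did not pass (adjusted P = 0.0723 and 0.487).

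Trex1 passed in 4T1R1 only, where treated libraries had 200, 291 and 224 and overlapped the untreated ones. It fell by 0.41 ± 0.14 on the log2 scale (adjusted P = 0.0238). Without untreated 4T1R1 replicate 2 the log2 value was -0.27 (adjusted P = 0.201), without treated replicate 1 -0.29 (adjusted P = 0.178) and without treated replicate 3 -0.36 (adjusted P = 0.0891). The other log2 values, -0.28 ± 0.17 in 4T1 and -0.17 ± 0.14 in 4T1R2, did not pass (adjusted P = 0.222 and 0.517). The treated 4T1 libraries, at 165 and 132, were under every untreated one, and the treated 4T1R2 libraries, at 297, 217 and 262, overlapped theirs.

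The low-count genes Dhx58 and Zbp1 passed in no population. Dhx58 had 53.5 and 62.6 in treated 4T1, 104, 87.8 and 95.2 in treated 4T1R1 and 103, 90.01 and 65.6 in treated 4T1R2. Zbp1 had 18.1 and 23.8, then 94.9, 68.8 and 86.3, then 102, 107 and 82.7 in the same groups. Every treated group overlapped its untreated group, and the SE of these responses, 0.18 to 0.38 on the log2 scale, leaves differences of that size undetectable at this depth.

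**Figure D3:**
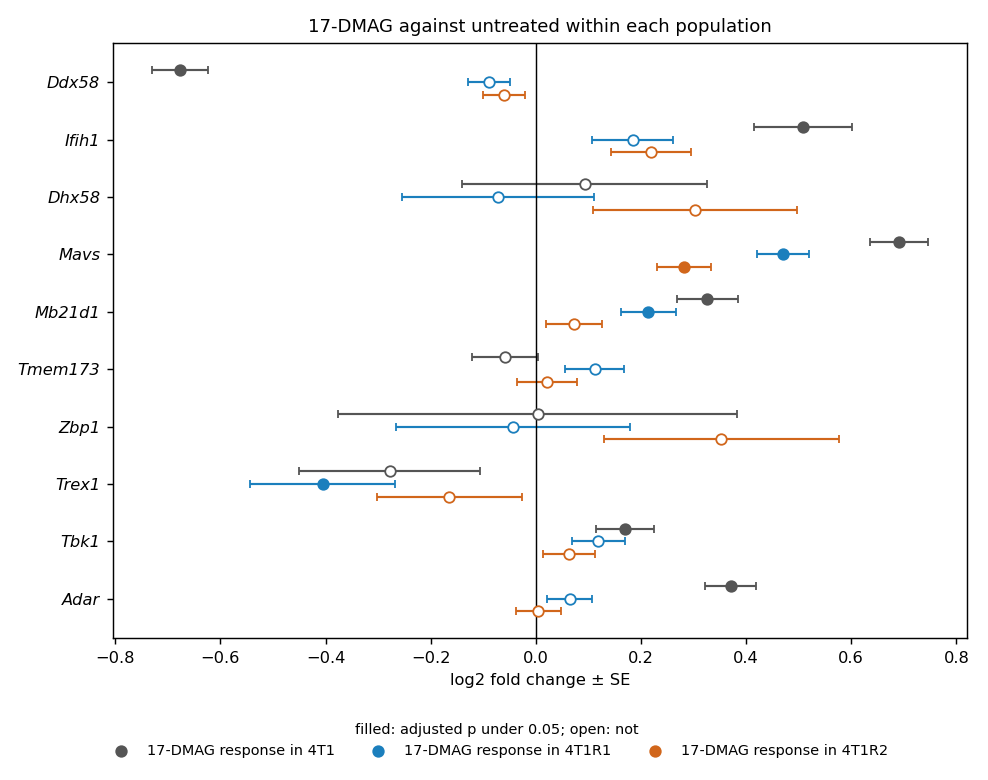
Log2 fold change (horizontal axis) of each sensor gene between 17-DMAG-treated and untreated libraries within 4T1, 4T1R1 and 4T1R2, with bars of 1 SE and filled points at an adjusted P under 0.05. Ddx58 in 4T1 stands alone at -0.68, and Mavs decreases from 0.69 in 4T1 to 0.47 in 4T1R1 and 0.28 in 4T1R2.

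The responses were also compared between populations by a test of their difference. For 4T1R1 against 4T1, 1 member had a higher and 2 a lower response, beside 9.16% and 9.08% of all tested genes, 18.2% in all. For 4T1R2 against 4T1 the count was 1 higher and 3 lower, beside 9.62% and 8.16%, 17.8% in all. The comparisons share the 4T1 libraries. With total counts as the scaling the medians of all genes shifted to 0.15 and 0.068 and the genes split 3536 to 419 in 4T1R1, in place of 1237 to 1227, and 2091 to 632 in 4T1R2, in place of 1299 to 1102. Ddx58 differed most, with the response higher by 0.59 ± 0.067 in 4T1R1 (adjusted P = 8.46e-09) and 0.62 ± 0.067 in 4T1R2 (adjusted P = 1.70e-09) on the log2 scale. As its mRNA fell in 4T1, the ratio of resistant to parental means went from 2.15 untreated to 3.21 treated in 4T1R1 and from 2.32 to 3.55 in 4T1R2.

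For Adar the response was lower than in 4T1, by a log2 of -0.31 ± 0.064 in 4T1R1 (adjusted P = 0.000515) and -0.37 ± 0.064 in 4T1R2 (adjusted P = 3.27e-05), and with total counts as the scaling the 4T1R1 value was -0.16 (adjusted P = 0.0630). The ratio of Adar means to 4T1 went from 1.29 untreated to 1.04 treated in 4T1R1 and from 1.51 to 1.17 in 4T1R2. The Mavs response was lower by a log2 of -0.22 ± 0.074 in 4T1R1 (adjusted P = 0.0308) and -0.41 ± 0.075 in 4T1R2 (adjusted P = 6.51e-05). The 4T1R1 value lost its call with total counts (-0.071, adjusted P = 0.545) and without any of 6 libraries, at -0.19 to -0.22: untreated 4T1 replicates 1 and 2, untreated 4T1R1 replicates 1 and 2 and treated 4T1R1 replicates 2 and 3. Mb21d1 differed in 4T1R2 by a log2 of -0.25 ± 0.079 (adjusted P = 0.0193), a call lost with total counts (-0.19, adjusted P = 0.110) and without untreated 4T1 replicate 2 (-0.23, adjusted P = 0.0524), treated 4T1 replicate 3 (-0.21, adjusted P = 0.153) or untreated 4T1R2 replicate 2 (-0.23, adjusted P = 0.0520). For Ifih1 the differences of -0.32 ± 0.12 and -0.29 ± 0.12 did not pass (adjusted P = 0.0582 and 0.0957), although they did without untreated 4T1R1 replicate 2 (-0.35, adjusted P = 0.0454) or treated 4T1R1 replicate 1 (-0.46, adjusted P = 0.00340) in 4T1R1 and without untreated 4T1R2 replicate 3 (-0.36, adjusted P = 0.0409) in 4T1R2.

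Across all 6 groups the genes differed in how far their levels ranged. The highest group mean over the lowest was 4.68 for Zbp1, 3.70 for Ddx58, 2.38 for Ifih1 and 2.13 for Trex1. It was 1.86 for Dhx58, 1.61 for Mavs, 1.52 for Adar and 1.32 for Mb21d1. Tmem173 and Tbk1 varied least, at 1.23 and 1.18. Ddx58 was ordered from untreated 4T1R2 (2901 ± 53.9, mean ± SD) through treated 4T1R2 (2783 ± 40.8), untreated 4T1R1 (2678 ± 86.5), treated 4T1R1 (2518 ± 33.5) and untreated 4T1 (1248 ± 3.54) to treated 4T1 (784 ± 58.6), and only treated 4T1R2 and untreated 4T1R1 overlapped as neighbors. Ifih1 was highest in treated 4T1R2 (940 ± 11.3), and its 4 resistant groups overlapped their neighbors down to untreated 4T1R1 (728 ± 25.8), above treated (561 ± 15.1) and untreated 4T1 (395 ± 24.2). Zbp1 split into the 4 resistant groups, with means from 76.1 to 97.3, and the 4T1 groups, at 20.9 ± 4.00 treated and 20.8 ± 11.1 untreated, with no overlap between these sets and overlap between all neighbors within them.

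Dhx58 ran from untreated 4T1R1 (101 ± 11.5) down to untreated 4T1 (54.2 ± 9.12), and the only gap between neighbors lay between untreated 4T1R2 (70.0 ± 7.24) and treated 4T1 (58.1 ± 6.46). Trex1 was highest in untreated 4T1R1 (316 ± 55.1), with all resistant groups overlapping their neighbors, and lowest in treated 4T1 (148 ± 23.2). Adar led in treated and untreated 4T1R2 (3719 ± 175 and 3704 ± 127), which overlapped. Untreated 4T1 (2449 ± 57.3) stood under all other Adar groups. For Mavs the 3 treated groups came first and did not overlap, from 4T1 (2053 ± 79.2) through 4T1R1 (1874 ± 52.6) to 4T1R2 (1586 ± 25.0), and the 3 untreated groups overlapped. Mb21d1 was highest in treated 4T1R1 (1420 ± 17.3) and lowest in untreated 4T1 (1075 ± 48.6). Tmem173 had only treated 4T1R1 (1090 ± 21.2) apart from its neighbor, and Tbk1 only untreated 4T1 (1447 ± 76.5).

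How closely the members varied together is described by Pearson's r of log2(normalized count + 1) over the 17 libraries, which share groups and scaling, so no P is given. Ddx58 and Zbp1 had the highest r of the 45 pairs, 0.89, followed by Ifih1 with Zbp1, also 0.89, and Ifih1 with Adar, 0.88. Mavs and Mb21d1, which both rose with the drug in 4T1 and 4T1R1, had 0.83. Mavs ran against Trex1 and Ddx58, at -0.35 and -0.29. Among all other tested genes, those most like Ddx58 were Tns4 (0.994), Slfn8 (0.991) and Csf3 (0.990). Ifih1 was most like Ifit1 (0.963), Oasl2 (0.963) and Nup205 (0.959), and Zbp1 most like Fam120b (0.970), Oas1g (0.960) and Oas2 (0.959). For Mavs they were Trim65 (0.967), Gatsl3 (0.961) and Parp3 (0.961), and for Adar Prpf8 (0.965), Hbs1l (0.957) and Slc7a11 (0.956). Mb21d1 was most like P4ha2 (0.953), Aox1 (0.945) and Mgea5 (0.943), and Tmem173 most like Rad54b (0.931), Cd74 (0.904) and Loxl3 (0.898). The highest values were lower for Trex1, with Pou2f3 (0.919), Stx11 (0.919) and Irgq (0.907), for Dhx58, with C1s2 (0.912), Kiz (0.889) and Sp140 (0.887), and for Tbk1, with Ppil4 (0.885), Slc52a3 (0.872) and Ank1 (0.872).

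Other genes of the pathway were followed in lists by role. Their counts are to be read against all tested genes, of which 25.2% were higher and 27.5% lower in untreated 4T1R1 and 25.6% and 26.9% in untreated 4T1R2. Among 25 other sensors and co-sensors tested, 8 were higher and 16 lower in untreated 4T1R1 than in 4T1 and 6 were higher and 8 lower in 4T1R2, with medians of -0.15 and -0.069. These are 32% and 64% of the list in 4T1R1, and 24% and 32%, near the shares over all genes, in 4T1R2. The helicase co-sensor gene Ddx60 was higher in both (log2 1.80 ± 0.10 and 1.83 ± 0.10, adjusted P = 6.43e-19 and 4.94e-19), as was the DNA-binding gene Mndal (log2 0.65 ± 0.079 and 0.72 ± 0.079, adjusted P = 3.06e-09 and 3.40e-10). Ddx3x, an RNA helicase gene, was lower in 4T1R1 (log2 -0.74 ± 0.035, adjusted P = 3.48e-21) and missed the threshold in 4T1R2 (-0.079 ± 0.035, adjusted P = 0.0548). Aim2, the DNA sensor of an inflammasome, was higher in 4T1R1 at low counts, with a mean of 14.1 in 4T1 and 39.0 in 4T1R1 (log2 1.47, adjusted P = 0.00139), and did not pass in 4T1R2 (log2 0.67, adjusted P = 0.183).

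Of 23 adaptors, kinases and transcription factors downstream, 14 were higher and 5 lower in 4T1R1 (60.9% and 21.7%, against 25.2% and 27.5% of all tested genes) and 9 were higher and 5 lower in 4T1R2 (39.1% and 21.7%, against 25.6% and 26.9%). Irf7, a transcription factor that amplifies interferon production, was higher in both (log2 1.70 ± 0.083 and 1.73 ± 0.084, adjusted P = 1.10e-20 and 8.97e-21). Irf5, a related factor, was higher by 1.54 ± 0.17 and 0.68 ± 0.19 (adjusted P = 4.79e-10 and 0.00200). Ikbke, the close relative of Tbk1, was higher by 1.41 ± 0.058 and 0.82 ± 0.060 (adjusted P = 2.14e-23 and 3.49e-15). Irf1 was higher too (log2 0.83 and 0.62, adjusted P = 2.73e-16 and 1.85e-12). By contrast Irf3, the main TBK1 substrate, had means of 771 ± 17.0 in 4T1, 803 ± 6.43 in 4T1R1 and 743 ± 19.7 in 4T1R2 and did not pass (log2 0.057 and -0.056, adjusted P = 0.488 and 0.506). After 17-DMAG, Irf1 and Ikbke fell in 4T1, by 0.43 and 0.47 on the log2 scale (adjusted P = 1.67e-06 and 1.32e-06), while Irf3 and Irf7 did not pass there (log2 -0.066 and -0.040, adjusted P = 0.532 and 0.816). In 4T1R1 Irf1, Ikbke and Irf7 were lower (log2 -0.21, -0.33 and -0.31, adjusted P = 0.00249, 6.94e-06 and 0.00122). Irf3 did not pass there (log2 -0.14, adjusted P = 0.102). In 4T1R2 none of these genes passed (adjusted P = 0.0892 for Irf1, 0.255 for Ikbke, 0.417 for Irf7 and 0.916 for Irf3).

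Of 32 ubiquitin ligases and regulators of RIG-I, MAVS and STING, 8 were higher and 10 lower in 4T1R1 (25% and 31.2%, against 25.2% and 27.5% of all tested genes) and 9 higher and 11 lower in 4T1R2 (28.1% and 34.4%, against 25.6% and 26.9%), shares near those of all genes. Usp18, which restrains interferon receptor signaling and ISG15 modification, was the highest (log2 2.81 ± 0.15 and 2.79 ± 0.15, adjusted P = 9.78e-20 and 1.82e-19). Nlrc3, a regulator of STING signaling, was lower (log2 -0.79 ± 0.13 and -1.13 ± 0.14, adjusted P = 1.84e-06 and 3.26e-09). Nlrc5 was higher in 4T1R1 (0.66 ± 0.056, adjusted P = 3.82e-13) and did not pass in 4T1R2 (-0.065 ± 0.060, adjusted P = 0.377). Trim25, a ubiquitin ligase of the RIG-I route, was modestly higher in both (log2 0.30 and 0.43, adjusted P = 2.97e-09 and 2.59e-13). Enpp1, which hydrolyzes the cGAS product, was a rare transcript, with 4.27 to 19.7 normalized counts in untreated 4T1 and no count in any 4T1R1 library. With a floor of 3 counts per library (2.94 normalized), its untreated 4T1R1 mean was at least 4.60-fold under the 4T1 mean of 13.5 ± 8.15. This bound holds for the means only, as the lowest 4T1 library, at 4.27, was close to the floor. In untreated 4T1R2 Enpp1 had 0 to 4.68 normalized counts, with a mean of 2.20 ± 2.35, overlapping 4T1, and passed as lower (log2 -2.53 ± 0.81, adjusted P = 0.00837). The median of the list, -0.032 in 4T1R1, was the same with Enpp1 at that bound.

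Among 17 nucleases and RNA editing genes tested beside Trex1 and Adar, 6 were higher and 2 lower in 4T1R1 (35.3% and 11.8%, against 25.2% and 27.5% of all tested genes) and 7 were higher and none lower in 4T1R2 (41.2%, against 25.6% higher and 26.9% lower). Dnase2a, a lysosomal DNase gene, was higher by log2 0.62 ± 0.19 and 1.18 ± 0.18 (adjusted P = 0.00473 and 6.36e-07), and Adarb1, a relative of Adar, by 0.34 ± 0.054 and 0.46 ± 0.054 (adjusted P = 9.81e-07 and 2.01e-09). Dnase1l1 passed in 4T1R1 (0.38 ± 0.10, adjusted P = 0.00138) and not in 4T1R2 (0.10 ± 0.10, adjusted P = 0.443). Samhd1, which depletes deoxynucleotides, was slightly higher in both (log2 0.14 and 0.23, adjusted P = 0.00169 and 2.59e-06).

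Most interferon ligand genes were below the filter. Of 20 interferon ligands and receptors, 14 were below the filter, Ifnb1 among them, which had no count in 4T1 libraries and at most 3.71 normalized counts in any other, so its differences were not detectable at this depth. The 6 tested genes were the receptor genes named next and some ligand genes. None of those ligand genes passed in untreated 4T1R1 or 4T1R2 against 4T1, and their levels are not given here. Among the 6 tested, the type I receptor gene Ifnar2 was higher in 4T1R1 and 4T1R2 (log2 1.12 ± 0.058 and 1.00 ± 0.059, adjusted P = 6.40e-20 and 4.24e-18), as was Il10rb (0.87 ± 0.091 and 0.33 ± 0.096, adjusted P = 1.06e-10 and 0.00338), a subunit shared by the type III receptor. Ifnlr1, its other subunit, passed in 4T1R1 (0.38 ± 0.15, adjusted P = 0.0269) and not in 4T1R2 (0.038 ± 0.15, adjusted P = 0.852). Ifnar1, the partner of Ifnar2, did not pass in either (log2 0.063 and -0.037, adjusted P = 0.239 and 0.509).

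All 33 interferon-stimulated readout genes tested were higher in both untreated resistant populations, with medians of 1.42 in 4T1R1 and 1.73 in 4T1R2. This list holds genes picked as well-known interferon targets with earlier results of these data in view, so its direction is not independent evidence. Oas2 was highest, at 4.47 ± 0.25 in both (adjusted P = 7.37e-19 and 9.83e-19), from a mean of 7.97 normalized counts in 4T1 to 177 in each. Mx2, an antiviral GTPase gene, reached 3.29 ± 0.23 and 3.56 ± 0.23 (adjusted P = 7.73e-16 and 4.55e-17), and Rsad2, the gene of viperin, 2.07 ± 0.14 and 3.11 ± 0.13 (adjusted P = 7.52e-16 and 1.01e-22). After 17-DMAG, 19 of the 33 were higher and none lower in 4T1, where 18.4% of all tested genes were higher and 17.9% lower. In 4T1R1 10 were higher and 3 lower, against 13.9% and 14.3% of all genes, and in 4T1R2 8 were higher and 1 lower, against 6.18% and 4.35%. Their response was lower than in 4T1 for 10 genes in 4T1R1 and 8 in 4T1R2, against 9.08% and 8.16% of all tested genes, and higher for none. With total counts as the scaling the drug counts were 15 higher and 1 lower in 4T1, 11 and 2 in 4T1R1 and 7 and 1 in 4T1R2. Irf7 and Usp18 also belong to this list.

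**Figure D4:**
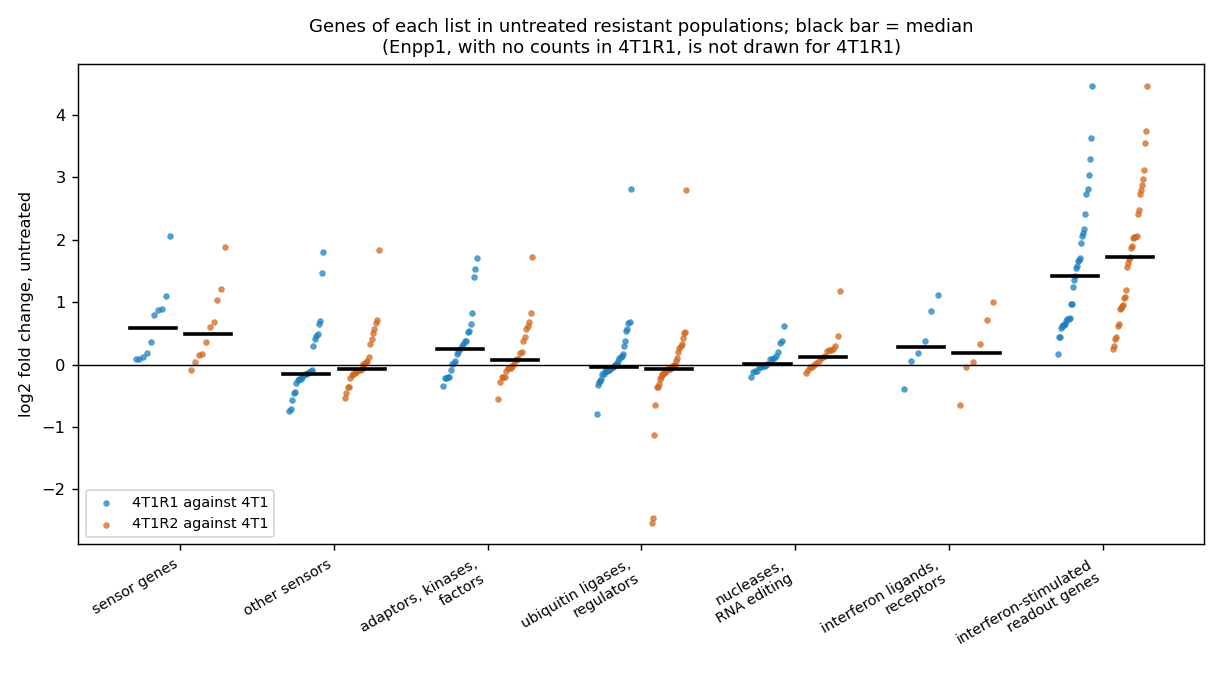
Log2 fold change (vertical axis) of each tested gene in untreated 4T1R1 and 4T1R2 against untreated 4T1, by list, with black bars for medians and Enpp1 left out for 4T1R1, where it had no counts. The interferon-stimulated readout genes all lie above 0, with medians of 1.42 and 1.73, and the other sensors have medians under 0, at -0.15 and -0.069.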

How the data were processed

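Counts of reads per gene, deposited without normalization, came from 18 libraries of 6 groups. The authors aligned reads to mm10 (GRCm38) with STAR and counted them per gene symbol with featureCounts. The submitters' processing notes name Subread 1.6.2 and bcl2fastq 2.20, while how strand, overlapping genes and multiply aligned reads were handled is not given in the sources used here. The members and lists were chosen with earlier results of these data known. Every pair of libraries was compared by chi-square over genes with few counts, and replicates 1 and 2 of treated 4T1 were averaged, which leaves 17 libraries.

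The tests used edgeR 4.0.16 (R 4.3.3) with filterByExpr, TMM scaling, all 6 groups in 1 fit and quasi-likelihood tests, with Benjamini-Hochberg adjustment across 13507 genes and a threshold of 0.05. The common biological coefficient of variation was 0.0376. SE is the log2 fold change over the square root of F. Normalized counts are counts over the TMM-scaled library size times 30965291. The code was tested on simulated data. Same-numbered libraries were not paired, as the correlations of their deviations from group means ran from -0.083 to 0.18. Alternatives were RLE scaling, total counts, no filter, at least 10 counts in every library, DESeq2 1.42.0, only the groups compared, 18 separate libraries, the replicate number as a block, a minimum fold of 1.2 and each library left out. The motif AANNGAAA was added after the promoters had been seen. Positions, exon lengths and overlaps are from GENCODE M21, in which Mb21d1 is named Cgas, and promoters from RefSeq (GRCm38.p6). The study counted reads on the UCSC mm10 annotation, and the annotations were not compared. Genes named beside the members were, from each list, the 3 with the largest change in untreated 4T1R1 or 4T1R2 among those past the threshold whose higher group averaged 100 or more normalized counts, a fixed set (Irf3, Irf7, Ikbke, Irf1, Aim2, Samhd1, Ripk3, Trim25, Enpp1, Ifnb1, Ifnar1, Ifnar2, Hspa1b and Hsph1), the 3 genes most like each member, and genes whose exons overlap a member's. The study's other experiments and transposable elements were not analysed here.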

Additional observations from a re-analysis of the deposited data

Results flagged for a closer look

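Responses to 17-DMAG that differed between populations by edgeR's test of the difference itself were found for 4 members, all relative to 4T1 and on the log2 scale. Ddx58 differed by 0.59 in 4T1R1 and 0.62 in 4T1R2. Adar differed by -0.31 and -0.37, and Mavs by -0.22 and -0.41. Mb21d1 differed by -0.25 in 4T1R2. With total counts as the scaling Tmem173 differed too, by 0.32 in 4T1R1 (adjusted P = 0.00358), while Mavs and Adar in 4T1R1 and Mb21d1 in 4T1R2 no longer passed. All of them rest on n = 2 for treated 4T1. No group had more than 3 libraries, so no group was tested for a library that stands apart from the others.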

How the results depend on the processing

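Of 216 counts of called members, 200 stayed within 1.5 times the reported count. With a minimum fold of 1.2 no member was called for 4T1R2 against 4T1R1 (0 in place of 4) or for 17-DMAG in 4T1R2 (0 in place of 1), and 1 was called for 17-DMAG in 4T1R1 (in place of 3), for the 4T1R1 minus 4T1 difference (in place of 3) and for the 4T1R2 minus 4T1 difference (in place of 4). This alternative tests for more than the minimum fold by construction. With total counts as the scaling, 5 members were called for 17-DMAG in 4T1R1, and in 4T1R2 the other sensors had 2 calls in place of 5 and the ubiquitin regulators 5 in place of 3. For 17-DMAG in 4T1R2, 2 members were called without a filter, with only the groups compared, with 18 separate libraries and with the replicate number as a block, Ifih1 being the addition, and the cause was not tested. Leaving out 1 library at a time gave 7 to 8 members for 4T1R1 against 4T1, 6 to 7 for 4T1R2 against 4T1, 2 to 5 for 4T1R2 against 4T1R1, 5 to 6, 2 to 4 and 1 to 2 for 17-DMAG in 4T1, 4T1R1 and 4T1R2, and 2 to 4 and 3 to 5 for the differences in response of 4T1R1 and 4T1R2.

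The labels do not say whether same-numbered libraries shared more than a number. The block was fitted with 18 separate libraries. It gave -0.11 for Zbp1 with 17-DMAG in 4T1, 0.072 for Zbp1 and -0.33 for Ifih1 (adjusted P = 0.0310) in the 4T1R1 minus 4T1 difference. The 18 separate libraries without the block gave -0.096, 0.053 and -0.33 (adjusted P = 0.0306), so these moves are not the block's own.

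All reversed log2 values belonged to results that were not called. For 17-DMAG in 4T1, total counts gave -0.022 for Dhx58 and -0.11 for Zbp1, and Zbp1 was -0.0015 with RLE, -0.0054 with at least 10 counts, -0.016 with DESeq2 and -0.096 with 18 separate libraries. In 4T1R2 total counts gave -0.025 for Tmem173 and -0.042 for Adar. For the 4T1R1 minus 4T1 difference, total counts gave 0.037 for Mb21d1, 0.10 for Zbp1, 0.022 for Trex1 and 0.099 for Tbk1, and 18 separate libraries 0.053 for Zbp1. Leaving out 1 library gave, for 4T1R2 against 4T1R1, -0.053 to 0.013 for Mb21d1, -0.31 to 0.0096 for Zbp1 and -0.25 to 0.023 for Trex1. For 17-DMAG it gave -0.043 to 0.19 for Dhx58 and -0.39 to 0.50 for Zbp1 in 4T1, -0.14 to 0.026 for Dhx58 and -0.18 to 0.11 for Zbp1 in 4T1R1, and -0.034 to 0.035 for Adar in 4T1R2. For the differences in response it gave -0.54 to 0.35 for Zbp1, -0.30 to 0.012 for Trex1 and -0.091 to 0.023 for Tbk1 in 4T1R1, and -0.14 to 0.75 for Zbp1 and -0.026 to 0.24 for Trex1 in 4T1R2. Depth limits Zbp1 and Dhx58 most, with group means of at most 97.3 and 101 normalized counts.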
